A study of Mus musculus with 4 samples.

Results

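The chromosome 6 flanks of Tet3 are the stretches on both sides of the gene that was deleted in the mutant mice. They were taken as all listed regions that start between 63 and 104 Mb on chromosome 6 (GRCm38), about 20 Mb to each side of the gene, without the 42 regions that overlap Tet3 itself (chr6:83362373-83457208). This gave 8175 of the 484555 regions in the authors' deposited table, set beside 19104 regions on the rest of chromosome 6. The question was whether regions that had lost methylation in the mutant gathered near the deleted gene. Methylation came from bisulfite sequencing of the whole genome in primary hair matrix keratinocytes, dividing cells of the follicle bulb that form the hair shaft, taken on P4.5. The groups were WT, with 2 libraries, and, also with 2 libraries, the genotype Tet2/Tet3 DKO, Krt14-Cre, in which the keratin 14 promoter drives Cre recombinase in basal epithelial cells and their descendants. The labels do not say whether libraries came from separate animals, which exons were deleted or on which strain the alleles were made. The table gives 1 mean level per group and no value per library, so the differences could not be set against the spread between libraries, and the depth is unknown.

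TET enzymes oxidise 5-methylcytosine to 5-hydroxymethylcytosine and further products, a route to the removal of methylation, so enhancers and other sites of TET activity can gain methylation when the enzymes are absent. Tet3 and Tet2 are the members of the family deleted here. Bisulfite treatment does not separate 5-methylcytosine from 5-hydroxymethylcytosine, so each level is the sum of both. In mammalian genomes, CpG-dense promoters are mostly unmethylated, whereas CpG-poor sequence between genes is mostly methylated. The WT was read as the first group from the order of genotypes in the name of the table. Differences are given as DKO minus WT, in percentage points, and every direction would turn with the opposite order. Where a pair of levels is printed, the WT level comes first. The table holds no expression, so the labelled cell type was not checked against its markers.

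Start sites on the flanks show in sequence what the levels below describe in numbers. The gained starts mostly held fewer than 10 CpGs, and the starts richest in CpGs were low in both groups. The lines below give 250 bases upstream of 7 gene starts (RefSeq, GRCm38.p6), 5′ to 3′ on the strand of the gene, with each CpG, the dinucleotide that carries methylation, in capitals. The starts were chosen after their values were seen, to show a gain, a low level or a lowered level.
Foxp1 alternative start: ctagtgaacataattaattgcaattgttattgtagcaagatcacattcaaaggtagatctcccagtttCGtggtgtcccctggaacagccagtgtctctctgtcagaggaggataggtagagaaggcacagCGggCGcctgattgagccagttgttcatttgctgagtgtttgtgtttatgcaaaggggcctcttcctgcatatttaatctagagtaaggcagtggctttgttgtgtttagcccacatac
Foxp1 CpG-rich start: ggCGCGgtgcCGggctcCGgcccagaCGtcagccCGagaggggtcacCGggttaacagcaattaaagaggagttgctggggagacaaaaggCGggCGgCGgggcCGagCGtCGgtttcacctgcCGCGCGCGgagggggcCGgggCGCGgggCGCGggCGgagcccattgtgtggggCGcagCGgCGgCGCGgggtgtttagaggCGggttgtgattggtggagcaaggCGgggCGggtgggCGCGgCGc
Gm38826: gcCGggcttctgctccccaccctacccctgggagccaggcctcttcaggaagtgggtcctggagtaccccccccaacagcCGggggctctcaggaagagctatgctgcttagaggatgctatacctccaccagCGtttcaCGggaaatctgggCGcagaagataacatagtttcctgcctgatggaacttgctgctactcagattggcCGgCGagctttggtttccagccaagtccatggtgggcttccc
Gm33934: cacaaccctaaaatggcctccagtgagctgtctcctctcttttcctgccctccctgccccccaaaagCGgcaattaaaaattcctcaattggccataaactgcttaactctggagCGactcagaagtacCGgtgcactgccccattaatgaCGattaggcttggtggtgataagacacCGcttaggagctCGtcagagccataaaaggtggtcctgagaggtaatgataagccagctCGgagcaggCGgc
Tet3: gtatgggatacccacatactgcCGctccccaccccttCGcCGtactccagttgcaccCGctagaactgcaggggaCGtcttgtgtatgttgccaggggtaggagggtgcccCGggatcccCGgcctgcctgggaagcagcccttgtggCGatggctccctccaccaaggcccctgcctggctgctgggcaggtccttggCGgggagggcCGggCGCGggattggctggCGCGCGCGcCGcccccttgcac
Hdac11: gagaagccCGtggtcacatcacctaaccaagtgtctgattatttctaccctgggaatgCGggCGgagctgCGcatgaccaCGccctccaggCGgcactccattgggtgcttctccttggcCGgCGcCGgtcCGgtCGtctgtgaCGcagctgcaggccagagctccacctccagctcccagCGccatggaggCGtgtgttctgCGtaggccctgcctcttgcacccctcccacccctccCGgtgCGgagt
Dctn1: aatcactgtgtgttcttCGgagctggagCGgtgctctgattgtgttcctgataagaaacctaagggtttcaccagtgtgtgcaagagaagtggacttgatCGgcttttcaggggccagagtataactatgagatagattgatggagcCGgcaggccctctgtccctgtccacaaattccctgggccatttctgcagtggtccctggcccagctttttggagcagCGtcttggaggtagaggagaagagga
Foxp1, a forkhead transcription factor, appears with different levels at separate starts. The upstream window at chr6:99266516-99266765 (minus strand) held 3 CpGs, all within a region of 12 positions that was at 35.4% in WT and 67.4% in DKO in the authors' deposited table. At chr6:99028299-99028548 (minus strand) the window held 34 CpGs, and the region over it had levels of 3.60% and 4.63% in the authors' deposited table. Within this gene the CpG-poor start was higher in the DKO and the CpG-rich start was low in both groups. The windows of the noncoding genes Gm38826 (chr6:71106634-71106883, minus strand, 7 CpGs) and Gm33934 (chr6:101271686-101271935, plus strand, 8 CpGs) lay wholly within gained regions. Both counts of CpGs are above the median of 6 over all windows of this length in the gene table. The region over Gm38826 was at 17.5% in WT and 55.3% in DKO, and that over Gm33934 at 24.3% and 60.5%, in the authors' deposited table. Windows of 17 CpGs were low in both groups at Tet3 (chr6:83441679-83441928, minus strand, 4.67% and 7.38%) and at the histone deacetylase gene Hdac11 (chr6:91156565-91156814, plus strand, 3.01% and 5.54%) in the authors' deposited table. The printed Tet3 start is an internal one, in a region 15.6 kb below the upper end of the gene. Over that upper end, a region of 254 positions (chr6:83455545-83457801) was at 3.04% in WT and 2.94% in DKO in the authors' deposited table. Dctn1, which encodes a dynactin subunit and neighbours Tet3, had a start with 5 CpGs (chr6:83185696-83185945, plus strand), partly inside a region at 68.4% in WT and 63.2% in DKO in the authors' deposited table.

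The upstream windows of 389 annotated genes with 464 starts lay in the window, Tet3 counted among them, and those of 119 genes other than Tet3 met a listed region. A region that gained at least 20 points met the window of 14 genes, and none met a region that lost at least 10 points. The 14 are 3.61% of 388 genes (95% Wilson interval 2.16 to 5.96), near the 4.20% of 27025 genes in the whole table, where 0.833% met a loss at a start. On the rest of chromosome 6, 4.93% of 1156 genes met such a gain and 2 (0.173%) met a loss. The widest lowering at a start on the flanks was -7.04 points, at the noncoding Gm36409. Of the 71 genes with a start of at least 10 CpGs and a listed region, 1 held such a gain, the noncoding Gm34872. Over the 31 genes with a start of at least 20 CpGs, the medians were 2.93% (WT) and 2.98% (DKO). Across all 32851 windows of this length in the gene table, 92.1% held a CpG, 37.8% at least 10 and 17.9% at least 20, with a median of 6. The 14 include Nat8f2 and Nat8f3 of the Nat8 acetyltransferase family, whose similar copies could share reads, so their levels are uncertain.

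Losses were about as frequent on the flanks as on the rest of chromosome 6. A loss, here a DKO level at least 10 points under the WT level, was listed for 151 of the 8175 regions, or 1.85% (1.58 to 2.16, a 95% Wilson interval that covers only the counting of regions). The share was 2.01% on the rest of chromosome 6 (384 of 19104, 1.82 to 2.22) and 2.12% on the other autosomes without chromosome 18 (9105 of 429810). Over the whole table it was 2.54%, and 2.11% over the autosomes. Per length of sequence there were 3.69 losses per Mb on the flanks and 3.64 per Mb on the rest of the chromosome. As a part of all measured cytosine positions, losses took 0.129% of 557073 positions on the flanks and 0.131% of 1459482 on the rest. The ratio of the shares was 0.919 (95% interval 0.763 to 1.11). It was 1.18 (0.931 to 1.48) when the window was narrowed to 10 Mb on each side and 1.15 (0.840 to 1.57) at 5 Mb. All of these intervals hold 1. Regions of 1 comparison are neighbours and not replicates, so no test over regions was made. Chromosome 6 stood 12 of the 19 autosomes in its share of losses (1.96%).

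The lower bound of the window fell in a stretch of lowered regions, with median differences of -6.62 points from 62 to 63 Mb and -6.71 points from 63 to 64 Mb. At the upper bound the medians were -3.08 points from 103 to 104 Mb and -6.69 points from 104 to 105 Mb. The last region outside the lower bound differed by -8.27 points and the first inside by -8.64 points. At the upper bound the last region inside differed by -4.76 points and the first outside by -3.68 points. Of the losses on the flanks, 57 lay between 10 and 11 points and a further 90 regions just missed the bound with 9 to 10 points, so the count depends closely on the bound. At least 15 points were lost by 12 regions and at least 20 points by 3.

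The sides of Tet3 differed in their shares, with most losses on the side of the centromere. There 116 of 2903 regions had lost at least 10 points (4.00%, interval 3.34 to 4.77), against 35 of 5272 on the side of the telomere (0.664%, 0.478 to 0.922). Gains of at least 20 points went the other way, with 16.3% of the regions on the centromere side and 26.9% on the telomere side. The median difference was -2.01 points on the centromere side (interquartile range -5.74 to 2.97) and 1.4 points on the telomere side (-1.77 to 21.7). Distance from Tet3 did not order the losses. Within 1 Mb of the gene 5 of 414 regions were losses (1.21%), and within 2 Mb 6 of 773 (0.776%). On the centromere side the share was 5.97% within 5 Mb, 4.71% from 5 to 10 Mb, 2.64% from 10 to 15 Mb and 3.55% beyond. On the telomere side it was 0.320%, 1.22%, 0.471% and 0.656% over the same steps. The high share within 5 Mb of the centromere side came from sequence more than 2 Mb from the gene, since 35 of its 38 losses lay there.

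**Figure D1:**
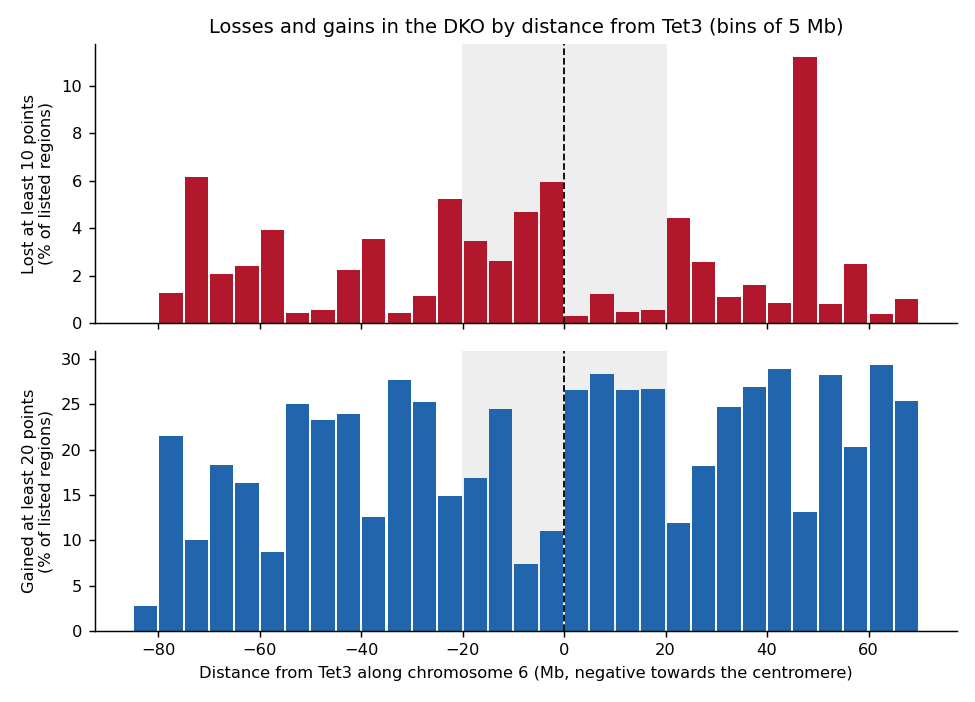
Share of listed regions that lost at least 10 points (upper bars, %) or gained at least 20 points (lower bars, %) in the DKO, in bins of 5 Mb by distance from Tet3 (dashed line) along chromosome 6, with the flanks in grey. The bin with the highest share of losses (11.2%) lies 45 to 50 Mb beyond Tet3, outside the flanks, and the 4 flank bins on the telomere side stay at 1.22% or less.

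Along chromosome 6 the bins with many losses were those with few gains. Of 31 bins of 5 Mb, the bin next to Tet3 on the centromere side had the third highest share of losses (5.97%), after bins at 45 to 50 Mb beyond the gene (11.2%) and at 70 to 75 Mb before it (6.17%). The share of losses was lower where measured cytosine positions were denser, with Pearson's r = -0.82 and Spearman's rho = -0.83 over the 8 bins of the flanks, and r = -0.65 and rho = -0.76 over the 23 other bins. The share of gains was higher where positions were denser (r = 0.90 over the flank bins, 0.85 over the others). These correlations are descriptions over bins that share their libraries and differ in base composition and gene content. On the flanks, the density ran from 7.85 positions per kb at 5 to 10 Mb before Tet3, with 3 coding genes, to 18.8 positions per kb in the first 5 Mb after it, with 78 coding genes. These bins had shares of losses of 4.71% and 0.320% and shares of gains of 7.35% and 26.6%. Gene counts did not follow the losses in every bin. The bin at 45 to 50 Mb beyond Tet3 (11.2% losses) held 88 coding genes at 8.99 positions per kb.

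**Figure D2:**
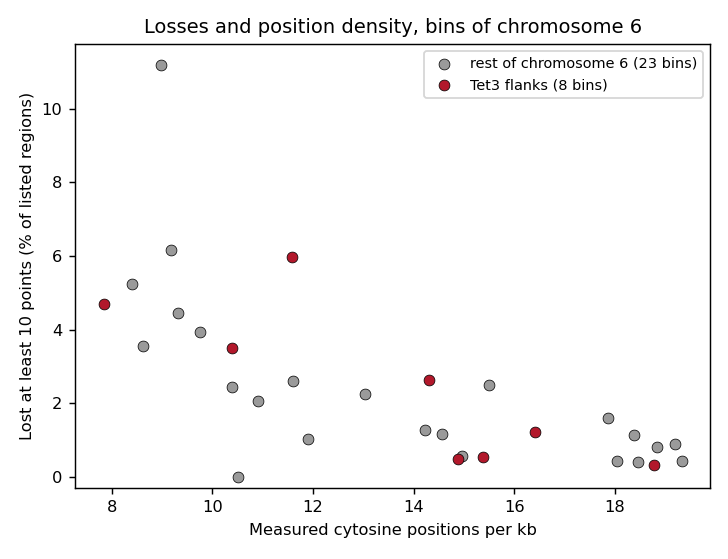
Share of listed regions that lost at least 10 points (y axis, %) against measured cytosine positions per kb (x axis) in bins of 5 Mb, for 8 bins of the Tet3 flanks (red) and 23 bins of the rest of chromosome 6 (grey). Points of the flanks lie among the others, from 7.85 positions per kb with 4.71% losses to 18.8 positions per kb with 0.320%.

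The same pattern appeared in blocks of 1 Mb. On the flanks, 10 of 41 blocks had a median difference of -4 points or lower, a bound chosen after the values were seen, and these 10 blocks held 82 of the 151 losses. In them 9.14% of 897 regions were losses and 2.90% were gains, with a median of 1 coding gene per block and 7.42 positions per kb. In the other 31 blocks 0.948% of 7278 regions were losses and 25.6% were gains, with a median of 6 coding genes and 15.02 positions per kb. The rest of chromosome 6 gave close values, 8.19% losses in its 32 low blocks and 0.950% in its 74 others. As the median and the losses come from the same levels, the split describes the blocks and is no separate support. Of the 10 low blocks, 9 lay on the centromere side. The lowest medians were -7.29 points from 79 to 80 Mb, -7.16 points from 69 to 70 Mb and -7.06 points from 80 to 81 Mb. On the telomere side, 102 to 103 Mb was the low block (-4.47 points), whose coding gene is Cntn3, a neural cell adhesion gene.

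**Figure D3:**
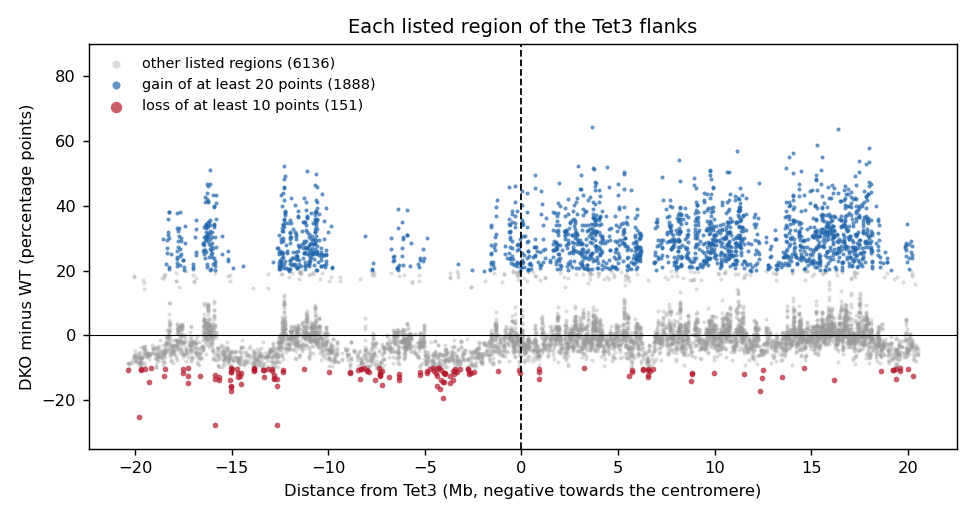
DKO minus WT difference (y axis, percentage points) of each of the 8175 listed regions of the flanks against its distance from Tet3 (x axis, Mb), with 151 losses of at least 10 points in red and 1888 gains of at least 20 points in blue. Losses are most frequent on the centromere side, where stretches without gains have most regions below 0, and few lie within 2 Mb of Tet3.

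Losses on the flanks were small and most rested on few positions. The median WT level of the losses was 80.1%, with quartiles of 75.4 and 83.9, and the median DKO level 68.0%, with quartiles of 63.3 and 71.8. The median difference was -11.4 points. The losses on the rest of chromosome 6 had medians of 77.4% and 65.4% and the same median difference of -11.4 points. Of the 151 losses, 83 (55.0%) held 3 positions or fewer, against 57.3% of losses on the rest of the chromosome and 25.03% of all listed regions of the flanks. Only 13 (8.61%) held at least 10 positions. Strands of a CpG are mostly counted apart, so 2 positions are often 1 CpG. The median width was 68 bp, and 69 losses exceeded 3 times the spread estimate that the table gives for the region. Merged within 10 kb, the 151 losses formed 97 groups. In 146 losses the WT level was above 60%, and in 7 the DKO level was below 50%.

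Most losses lay far from coding genes. On the flanks, 82.8% lay between genes, 15.2% inside a coding gene and 1.99% within 1 kb of a gene end, against 51.6%, 44.6% and 3.76% of all regions of the flanks. The median distance to the nearest coding gene was 156 kb (156469 bp), against 38.0 kb (37989.5 bp) for losses on the rest of chromosome 6. The shares by place were set beside those of the rest. Between genes 2.96% of 4222 regions were losses on the flanks (95% Wilson interval 2.49 to 3.52) and 3.12% of 9373 on the rest (2.78 to 3.49). Inside genes the share was lower on the flanks, at 0.631% (0.421 to 0.945) against 0.968% (0.783 to 1.20), with intervals that overlap. At gene ends they were 0.977% and 0.738%, from 3 and 7 losses.

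A pair of stretches on the centromere side held 69 of the 151 losses. The immunoglobulin kappa locus (chr6:67555636-70726754), whose V, J and C gene segments are joined in B cells, held 32 losses among 286 regions (11.2%, Wilson interval 8.04 to 15.4) and 9 gains of at least 20 points. Over this locus the median level was 77.3% in WT and 70.5% in DKO, and 271 of 286 regions were lower in the DKO. By comparison, 3899 of the 8175 regions of the flanks and 251195 of all 484555 listed regions were lower. One of the 32 losses overlapped a gene segment. The locus holds many similar gene copies, which could share reads. Without it the share of losses on the flanks was 1.51%, a ratio of 0.750 to the rest. The rest was left whole, with its own loss-rich bin at 45 to 50 Mb beyond Tet3 (66 losses among 589 regions, 11.2%). Removing a loss-rich stretch from the flanks alone lowers the ratio by construction, so no conclusion on the flanks was drawn from it. The stretch from 78 to 81 Mb, 2.36 to 5.36 Mb before Tet3 and chosen after its values were seen, held 37 losses among 302 regions (12.3%, 9.02 to 16.4). Its median was 78.5% in WT and 72.6% in DKO, and 8 coding genes overlap it, among them Lrrtm4, which encodes a synaptic adhesion protein.

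The 2 widest losses were found at a single CpG position and a short stretch. A region of 2 positions in the kappa locus (chr6:70690428-70690468) was at 89.2% in WT and 61.6% in DKO in the authors' deposited table. A single position 14.3 kb from Il23r, a cytokine receptor gene of immune cells (chr6:67506145-67506145), had levels of 72.6% and 44.9% in the authors' deposited table. Both lie more than 12 Mb from Tet3, and in units of the spread estimate their differences were -6.72 and -6.76.

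Among losses of 4 to 9 positions, 4 of the 5 widest lay between genes in the stretches named above. A region of 6 positions at chr6:79299848-79300156, 518 kb from the nearest coding gene, was at 80.1% in WT and 60.7% in DKO in the authors' deposited table, and another of 6 positions close by at chr6:79300658-79300793 was at 85.2% and 71.0% there. In the kappa locus, regions of 4 positions were at 74.8% and 58.9% (chr6:68296533-68296764) and at 86.6% and 70.9% (chr6:70690996-70691013) in the authors' deposited table. The fifth, 8 positions at chr6:76119926-76120310, lay 761 kb from Ctnna2, the gene of a neural alpha-catenin, and had levels of 83.1% and 67.6% in the authors' deposited table.

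Longer losses were fewer and narrower. Of the 13 losses with at least 10 positions, the widest was at chr6:79209924-79210734, 607 kb from the nearest coding gene, with 85.3% in WT and 71.5% in DKO in the authors' deposited table. A region of 26 positions at chr6:95904040-95904697, 185 kb from Suclg2, a subunit gene of the mitochondrial succinyl-CoA ligase, had levels of 69.1% and 55.8% in the authors' deposited table. A region of 16 positions at chr6:89022960-89023368, 111 kb from Tpra1, had levels of 66.7% and 54.3% in the authors' deposited table. The longest of the 10 widest spanned 1947 bp and 49 positions at chr6:72081194-72083140, 14.4 kb from St3gal5, the ganglioside GM3 synthase gene, with 85.5% and 75.2% in the authors' deposited table. Of the others of these 10, 1 lay inside Slc4a5, and the rest lay between genes, nearest to Gm20594, Eva1a, Rpia and Dysf.

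Within 1 Mb of Tet3, 2 of 220 regions on the centromere side (0.909%) and 3 of 194 on the telomere side (1.55%) were losses. The nearest on the centromere side were a pair of regions 103 kb away, inside Slc4a5, a sodium bicarbonate cotransporter gene. They were at 91.0% in WT and 79.5% in DKO (chr6:83259552-83259605, 4 positions) and at 90.2% and 79.6% (chr6:83259098-83259234, 10 positions) in the authors' deposited table. The nearest on the telomere side lay 888 kb away at chr6:84344789-84345596, 134 kb from the dysferlin gene Dysf, with 44 positions at 77.1% and 63.6% in the authors' deposited table. This region had a wide spread estimate of 6.90 points, so that its difference was -1.95 times that estimate. A second loss at chr6:84355005-84356116 (30 positions, 70.5% and 60.2% in the authors' deposited table) and a single position at chr6:84375079-84375079 (52.2% and 40.9% in the authors' deposited table) followed 898 and 918 kb from Tet3.

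Gains on the flanks were about as frequent as elsewhere. At least 20 points were gained by 1888 of 8175 regions (23.1%, Wilson interval 22.2 to 24.0), against 22.5% on the rest of chromosome 6 (21.9 to 23.1) and 22.9% in the whole table. Their median WT level was 45.3% and their median DKO level 76.2%, with a median of 11 positions. By WT level, 85.8% of the regions between 20% and 40% gained at least 20 points, 81.7% of those between 40% and 60% and 9.49% of those between 60% and 80%. On the rest of the chromosome these shares were 87.7%, 78.9% and 9.50%. Regions are listed for their difference, so the shares do not describe all sequence of such a level. The median difference over the flanks was 0.326 points, and it turned to -0.392 points within 10 Mb and -0.666 points within 5 Mb of Tet3.

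The 6 widest gains among regions of at least 10 positions all lay on the telomere side. A region of 46 positions 3.42 kb from Antxr1, which encodes a collagen-binding receptor also known as an anthrax toxin receptor (chr6:87129213-87130436), was at 17.2% in WT and 81.5% in DKO in the authors' deposited table. Inside Slc25a26, the gene of the carrier that brings the methyl donor S-adenosylmethionine into mitochondria (chr6:94594097-94595380, 44 positions), levels were 19.8% and 76.6% in the authors' deposited table. At Foxp1, a region 158 kb from the gene (chr6:98767165-98767434) was at 20.9% and 79.8% and 1 inside it with 82 positions (chr6:98998678-98999874) at 33.3% and 88.2% in the authors' deposited table. Foxp1 is known for a part in the quiescence of hair follicle stem cells. The remaining members were inside Frmd4b, a scaffold protein gene (chr6:97302288-97302688, 29.1% and 84.3% in the authors' deposited table), and 62.9 kb from Ppp4r2, a regulatory subunit gene of protein phosphatase 4 (chr6:100932793-100933332, 29.7% and 83.6% in the authors' deposited table). In units of the spread estimate these 6 differences ran from 11.8 to 17.0.

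Gene windows on the flanks mostly held gains. With 5 kb on either side, 184 of 268 coding genes (68.7%) held a region that gained at least 20 points, against 64.4% of all coding genes. On the rest of chromosome 6, 62.0% of coding genes held such a gain and 7.82% a loss of at least 10 points. On the flanks such a loss lay in 12 windows (4.48%, against 8.50% of all coding genes, which include those of the sex chromosomes). Of these 12 genes, 10 also held a gain. Among the 12 were Il23r, Ctnna2, Lrrtm4, Slc4a5, Gmcl1, Vmn1r47, Rbsn, Tafa4, Eif4e3 and Chl1.

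Genes known from skin and hair follicles mostly held gains. Of the 22 genes on this list, 20 held a region that gained at least 20 points and none held a loss of at least 10 points. Over all coding genes these shares were 64.4% and 8.50%, and among the coding genes of the flanks 68.7% and 4.48%. Gained regions covered a median of 5.50% of their windows, against 1.29% over all coding genes. The list was chosen with earlier results of these data known, and some members hold many regions (258 at Foxp1, 232 at Magi1). The counts are descriptions and no separate support. Besides Antxr1, the widest difference lay inside Frmd4b at a single CpG (chr6:97541039-97541040, 26.1% in WT and 82.6% in DKO in the authors' deposited table). Tcf7l1, a Wnt pathway repressor of hair follicle stem cells, held 35 gained regions over 13.8% of its window, led by 46 positions at chr6:72740408-72741355 with 15.7% and 65.5% in the authors' deposited table. Lrig1, a stem cell marker of the upper follicle that restrains EGF receptor signalling, held a region at 8.62% and 51.0% (chr6:94681587-94682024) in the authors' deposited table. The growth factor gene Tgfa held 72 positions at 34.0% and 75.3% (chr6:86265210-86268593), the hair placode factor gene Foxi3 10 positions at 33.4% and 66.6% (chr6:70958594-70959189) and the ligand gene Wnt7a 51 positions at 43.1% and 72.9% (chr6:91364334-91365704) in the authors' deposited table. Gata2 and Actg2 held no such gain, with widest differences of -2.59 and -3.75 points.

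Neighbours of Tet3 held gains in a share near that of all coding genes. Of 40 listed genes around it, 29 held a gain of at least 20 points, 1 (Slc4a5) also held a loss and 11 held neither, beside 64.4% and 8.50% of all coding genes with a gain and a loss, with a median coverage of 2.05%. The widest gains were inside Dysf (60 positions, chr6:84135100-84135906, 24.4% in WT and 73.9% in DKO in the authors' deposited table) and 4004 bp from Rab11fip5, a vesicle trafficking gene (chr6:85378688-85379334, 30.3% and 77.5% in the authors' deposited table). Dguok, the mitochondrial deoxyguanosine kinase gene, held a gain 38.9 kb from Tet3 at chr6:83495718-83496485 (16.4% and 60.9% in the authors' deposited table). The hexokinase gene Hk2, 0.629 Mb to the other side, held 11 gained regions, the widest at 23.0% and 68.9% (chr6:82733274-82734036) in the authors' deposited table. Small neighbouring genes share regions, as do Ino80b, Wbp1 and Mogs, so the count is not over separate measurements.

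Among the 5 lists, losses were most frequent at neural genes, a count over few genes that was not tested. Of 14 genes (Tlx2 with no listed region), 9 held a gain of at least 20 points and 4, among them Ctnna2, Lrrtm4 and Chl1, held a loss of at least 10 points, beside 64.4% and 8.50% of all coding genes, and gained regions covered a median of 0.483% of the windows. Lrrtm4 held 6 losses and 1 gain among 64 regions, whereas Ctnna2 held 3 losses among 181 and Chl1 held 1 among 36. A gene with many regions has more chances to hold a loss, which the share of genes does not take into account. Pdzrn3, a ubiquitin ligase gene, instead held 28 positions at 18.6% in WT and 71.5% in DKO inside the gene (chr6:101295839-101296691) in the authors' deposited table. Iqsec1, an exchange factor gene for Arf GTPases, held a gain at a single CpG (chr6:90717945-90717946, 11.8% and 60.7% in the authors' deposited table). Of the 11 chromatin and polymerase related genes, 10 held a gain and none a loss, beside 64.4% and 8.50% of all coding genes, and the median coverage was 2.94%, against 1.29% over all coding genes. The widest lay inside Ruvbl1, an ATPase gene of chromatin remodelling complexes (chr6:88479796-88480623, 32.2% and 79.0% in the authors' deposited table), and inside Rybp, a gene of Polycomb complexes (chr6:100249774-100250921, 41.9% and 85.6% in the authors' deposited table). Pcgf1, another Polycomb gene, came just short at 19.2 points.

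Of 11 markers of other cell types with a coding gene on the flanks, 7 held a gain and none a loss, near the 64.4% of all coding genes with a gain. The lists overlap, since Antxr1, Dysf, Fbln2, Smyd1, Actg2 and Gata2 stand in this list and in another. Inside Mitf, the melanocyte master regulator gene, a region of 18 positions (chr6:97949932-97950228) was at 29.6% in WT and 80.5% in DKO in the authors' deposited table. The T cell gene Cd8a held a region at 17.2% and 52.7% in the authors' deposited table. Atoh1, Actg2, Lmod3 and Gata2 held no gain. Methylation beside such a gene does not count cells, and the part of other cell types in these levels was not tested.

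**Figure D4:**
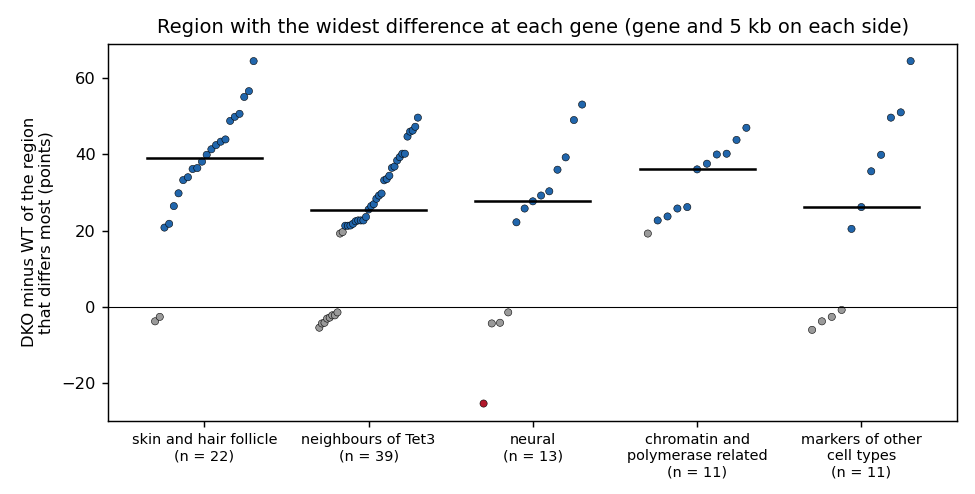
Difference (DKO minus WT, percentage points) of the region that differs most at each gene, in the gene or 5 kb on either side, for 5 gene lists on the flanks, with a horizontal line at the median of each list. The medians are 38.9 for skin and hair follicle genes, 25.5 for neighbours of Tet3, 27.6 for neural genes, 36.01 for chromatin and polymerase related genes and 26.1 for markers of other cell types, with gains of at least 20 points in blue, losses of at least 10 points in red and the others in grey.

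Tet3 itself, left out of the flanks, held 42 listed regions and no loss of at least 10 points. Of these, 37 were higher in the DKO, beside 4276 of 8175 regions on the flanks and 233360 of all 484555 listed regions. The 12 that gained at least 20 points together covered 7.95% of its 94.8 kb. The share of gains was 28.6% (95% Wilson interval 17.2 to 43.6), an interval that holds the 22.9% of the whole table. The widest gain, 29 positions at chr6:83439028-83439853, lay close to the CpG-rich start printed above and was at 10.7% in WT and 61.9% in DKO in the authors' deposited table. Further gains were at 23.2% and 68.7% (chr6:83433998-83434264), 24.0% and 68.9% (chr6:83418200-83419317) and 30.4% and 72.7% (chr6:83430816-83432148) in the authors' deposited table. The widest lowering in the gene was -6.87 points. In the 100 kb on either side, 6 of 19 regions towards the centromere and 11 of 36 towards the telomere gained at least 20 points, beside 22.9% in the whole table, and none lost at least 10.

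**Figure D5:**
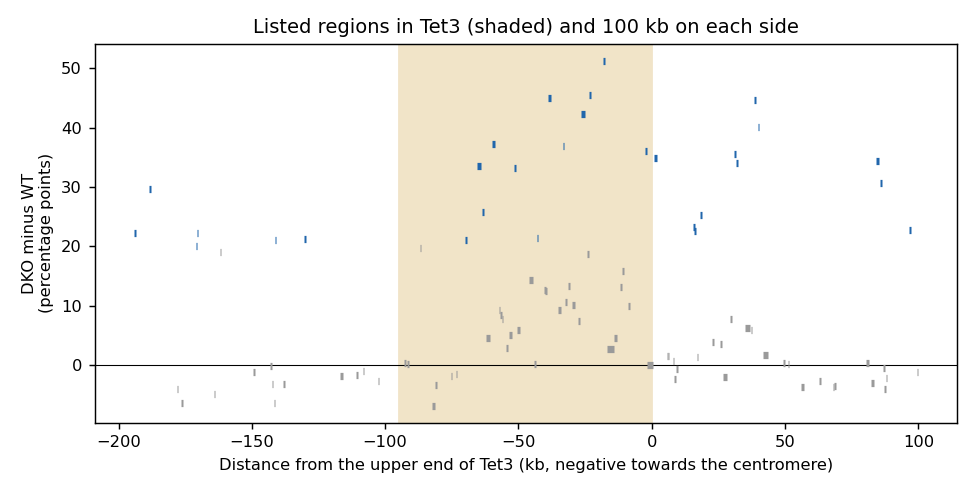
DKO minus WT difference (y axis, percentage points) of each listed region in Tet3 (shaded) and 100 kb on each side, drawn over its extent as distance from the upper end of the gene (x axis, kb), with gains of at least 20 points in blue. Gains run through the gene up to 51.2 points and on both sides, and no region lies at -10 points or lower.

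The flanks of Tet2 on chromosome 3, taken in the same way with 20 Mb on each side of that gene, held 449 losses among 8235 regions (5.45%, interval 4.98 to 5.96), against 3.19% on the rest of chromosome 3. Gains of at least 20 points took 21.9% of those regions.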

How the data were processed

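The submitters' processing notes name Trim Galore, Bismark and the build GRCm38, also called mm10. How the regions were called, smoothed or filtered is not given in the sources used here. For each region, the authors' deposited table gives 1 mean methylation fraction per group, printed here as percent, a region statistic, which is a score with no fixed range, and a spread estimate. It lists regions with an extreme statistic of -4.02 or lower or of 1.53 or higher. All 151 losses of the flanks had a positive statistic, against 1 of the 1888 gains. Losses were thus listed from a looser bound than nearly all gains, so the shares of losses and gains are not like measures. The sign of the statistic is not always that of the difference, since 6108 of the 8175 members had a positive statistic and 3899 were lower in the DKO. There are no p-values, counts or values per library, so depth is unknown, intervals cover counting over regions only, and the planned fits per library were not run.

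The 2 WT and 2 DKO libraries were grouped by title. Losses were at least 10 points and gains at least 20. Positions measured were counted from the running index in the table. Gene and upstream sequences came from RefSeq tables of GRCm38.p6. Distances run from the nearer end of Tet3 to the middle of a region. The gene lists hold coding genes only, which left out Igkc, and Ttc31 was not matched. Regions named are the 10 widest losses and 6 widest gains of at least 10 positions, the 5 widest losses of 4 to 9 positions, the losses nearest to Tet3, and the 2 widest differences per list. Other genes named, and the starts printed, were chosen after their values were seen. Some results are not reported here. The members and lists were chosen with earlier results of these data known. The counting functions were tested on simulated data. Alternatives were other minimum differences, positions, lengths, windows and backgrounds. Tables were computed in Python 3.11.15 (pandas 2.3.3, with numpy 2.4.6), intervals with scipy 1.17.1, and plots drawn with matplotlib 3.10.9.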

Additional observations from a re-analysis of the deposited data

How the results depend on the processing

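Values are ratios of the flanks to the rest of chromosome 6. The ratio of the share of losses (0.919) stayed within its 95% interval under 7 of 11 alternatives. It was 0.669 with at least 10 positions per region (13 losses on the flanks and 45 on the rest, interval 0.361 to 1.24). It was 1.18 with 10 Mb (0.931 to 1.48) and 1.15 with 5 Mb (0.840 to 1.57) on each side. All of these intervals hold 1. Without the immunoglobulin kappa locus, which was taken out of the flanks alone, it was 0.750 (0.612 to 0.920). The ratio of losses per Mb (1.01) stayed within its interval under 10 of 11 alternatives. With at least 10 positions it was 0.745, from the same 13 and 45 losses, with an interval of 0.402 to 1.38 that holds 1. The ratio of the share of gains (1.03) was 1.12 for gains of at least 30 points, 0.947 with 10 Mb and 0.936 with 5 Mb on each side, and stayed within its interval under the other 3. The median difference over the flanks (0.326 points) was 1.64 points with at least 10 positions, and turned to -0.392 points with 10 Mb and -0.666 points with 5 Mb on each side. The cause of these shifts was not tested. No paired analysis was possible because the table holds group means and no value per library, and for the same reason no replicate could be left out in turn. Depth is unknown and most losses rest on 3 positions or fewer, which limits how well a single loss is known.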
